A study of Homo sapiens with 7 samples.

Results

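FOXA1, FOXA2 and FOXA3 were followed through chromatin contact lists of 3 human cancer cell lines, and the lines differed in which of these genes had a promoter contact at all. FOXA1 had contacts in T-47D and LNCaP and none in Ishikawa, FOXA3 had a few in LNCaP, and FOXA2 had none in any line. The members were the 3 FOXA genes among 20163 genes that GENCODE annotates as protein-coding. Their contacts were the loops with an anchor over a 500 bp window centred on any annotated start site, which gave 78 of the 354783 loops in the 3 lists, namely 27 in T-47D, 51 in LNCaP and 0 in Ishikawa.

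FOXA proteins are transcription factors with a forkhead domain, a DNA-binding fold that resembles the linker histone. They are called pioneer factors because they can bind their motif in closed chromatin and make it accessible to other proteins. FOXA1 opens sites for the estrogen receptor in breast cells and for the androgen receptor in prostate cells, FOXA2 is best known from endoderm, liver and uterine glands, and FOXA3 from liver and intestine.

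The assay was HiChIP, in which cross-linked chromatin is cut, ligated and precipitated with an antibody, here against histone H3 acetylated at lysine 27 (H3K27ac), a mark of active promoters and enhancers. Each list value is the number of read pairs that join a pair of regions, called anchors. Ishikawa (endometrial adenocarcinoma) had 4 samples, of which 2 were given DMSO alone as the vehicle and 2 were given E2 (17β-estradiol) at 10 nM for 1 h. T-47D (ductal carcinoma of the breast) had 1 sample and LNCaP (prostate carcinoma) had 2, with no treatment, genotype or allele named for either line. Each line is a single established line grown in RPMI medium with fetal bovine serum, and the study's methods state that cells were kept in hormone-depleted medium for 5 days ahead of E2 inductions. The samples of a line were combined into 1 list, so no value has a replicate error and no test between lines was possible. The Ishikawa list held 163530 loops with 1040329 read pairs, the T-47D list 42027 with 351260, and the LNCaP list 149226 with 1805322. The hormone-depleted medium, stated for E2 inductions only, DpnII digestion, probe sonication, shorter reads and deeper sequencing went with Ishikawa, and MboI digestion with T-47D and LNCaP, so wherever Ishikawa is set against the other lines, cell line and technique cannot be told apart. Intervals below are exact 95% intervals that cover counting error only, since reads amplified by PCR are not independent molecules. As a check of the labels, markers of each line (PAX8, SOX17 and EMX2 for Ishikawa, GATA3, TRPS1 and TFAP2C for T-47D, KLK3 and HOXB13 for LNCaP) had more read pairs, relative to the list total, in their own list than in either other list.

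Sequence is given first for the FOXA1 partner regions that T-47D and LNCaP had in common by an overlap of 1 bp or more. They were ranked by the sum of read pairs in both lines, each scaled to its list, over regions with no coding promoter in either list. Capitals mark matches to the forkhead motif, searched as TGTTTAC and TGTTTGC on both strands. Windows of 200 bases were placed around a match outside exons. The first lies at chr14:37714806-37715005 on GRCh37, plus strand, 350 kb downstream of the FOXA1 5′ end, in an intron of MIPOL1. The second lies at chr14:37998538-37998737, plus strand, 66.6 kb downstream, also in an intron of MIPOL1.
Region 350 kb downstream: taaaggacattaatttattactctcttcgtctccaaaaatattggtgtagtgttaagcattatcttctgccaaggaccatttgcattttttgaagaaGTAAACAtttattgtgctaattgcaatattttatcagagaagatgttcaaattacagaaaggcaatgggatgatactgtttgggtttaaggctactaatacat
Region 66.6 kb downstream: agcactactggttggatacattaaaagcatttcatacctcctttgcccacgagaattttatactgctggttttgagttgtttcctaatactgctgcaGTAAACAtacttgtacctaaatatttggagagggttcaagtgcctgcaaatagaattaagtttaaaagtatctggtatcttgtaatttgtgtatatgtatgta
Both matches read GTAAACA on the plus strand, the reverse complement of TGTTTAC. A match was present in 6.98% of 125714 windows of this length tiled over the distal anchors of T-47D and in 8.03% of 524142 tiled over those of LNCaP. The part common to both lists held 4 matches in 5057 bp at the first region and 2 in 2666 bp at the second. The LNCaP anchors there were 19630 and 25032 bp wide, so their read pairs cannot be placed at the windows shown. Nor can those of T-47D, whose anchors were as wide as the common parts. In T-47D the second region had 23 read pairs and ranked 10th among the FOXA1 partners. The remaining region of the leading 3, 51.0 kb downstream (chr14:38013496-38015058), had 0 matches in 1563 bp.

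FOXA1 was the only member with strong promoter contacts (ENSG00000129514.8_9, GRCh37 chromosome 14, 38058757 to 38065264, minus strand, 5 start sites). In Ishikawa it had 0 loops, since no anchor lay over any of its start sites and the nearest anchor edge was 20.6 kb away. In T-47D it had 27 loops with 908 read pairs, or 2585 per 1000000 read pairs of the list (RPM, 2420 to 2758). In LNCaP it had 48 loops with 6348 read pairs, 3516 RPM (3430 to 3604). Among all protein-coding genes ordered by read pairs in promoter loops, FOXA1 was the 11th in T-47D and the 8th in LNCaP, at percentiles 99.9 and 99.96. Genes that share its promoter anchor ranked with it or ahead of it. TTC6 had 908 read pairs in T-47D and 6358 in LNCaP, and MIPOL1 had 14365 in LNCaP. The ranks therefore describe the shared anchor and cannot be assigned to FOXA1 alone. By the number of distal partners, anchors without a coding promoter, it was the 28th in T-47D with 16 and the 22nd in LNCaP with 40.

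A promoter loop was found for 57.3% of protein-coding genes in Ishikawa, with 58.1% in LNCaP and 49.2% in T-47D. The members with a loop numbered 0 of 3 in Ishikawa, 2 of 3 in LNCaP (FOXA1 and FOXA3) and 1 of 3 in T-47D (FOXA1). With Ishikawa set to 3 read pairs, the fewest of a listed loop, FOXA1 was 896-fold higher in T-47D and 1219-fold higher in LNCaP. Loops under that number were not listed, and several of them could together hold more. These folds therefore concern listed contacts and are no lower bound for all contacts. Of all protein-coding genes, 27.4% were 4-fold or more higher in T-47D than in Ishikawa, 27.0% in LNCaP than in Ishikawa and 7.59% in LNCaP than in T-47D. The members past that fold numbered 1 of 3 (FOXA1), 2 of 3 (FOXA1 and FOXA3) and 0 of 3. Lists below 3 read pairs were set to 3 for all genes, and FOXA3 passed at 4.42-fold with Ishikawa set in this way.

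**Figure D1:**
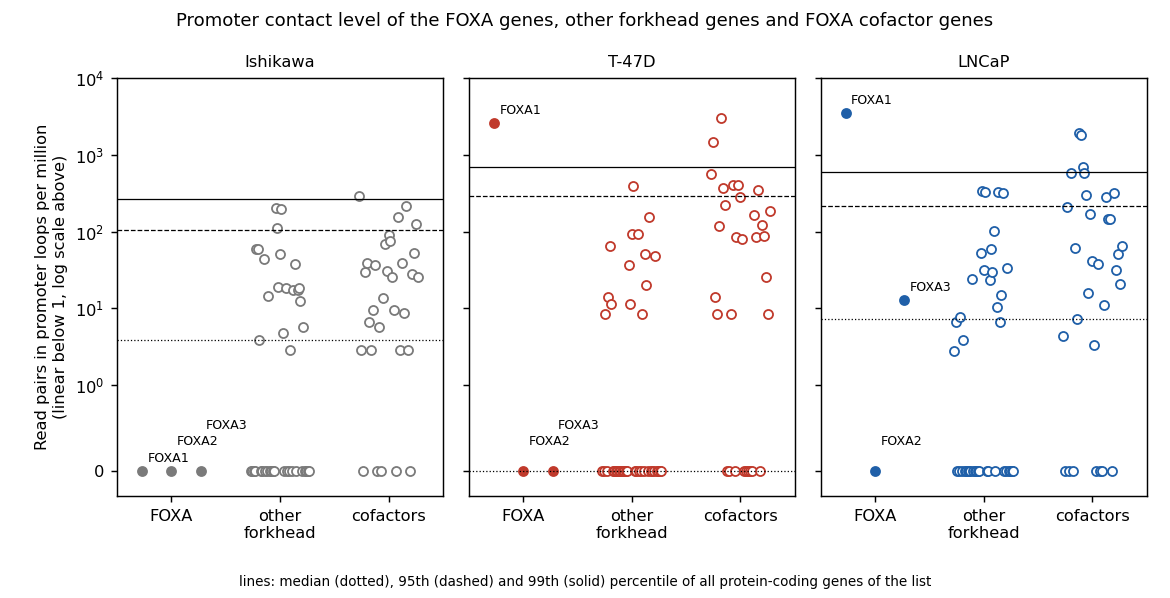
Read pairs in promoter loops per 1000000 read pairs of the list (RPM, linear below 1, log scale above) for the FOXA genes (filled), 41 other forkhead genes and 31 FOXA cofactor genes (open), 1 point per gene and 1 panel per cell line, with lines for percentiles of all protein-coding genes. FOXA1 stood at 2585 in T-47D and 3516 in LNCaP, above the 99th percentile of 680 and 588, and at 0 in Ishikawa.

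The FOXA1 level in LNCaP was 1.36 times that in T-47D (1.27 to 1.46), or 0.44 on the log2 scale (0.34 to 0.54), and the anchors over the promoter were of unequal width. The T-47D anchor over the promoter was 18719 bp wide (chr14:38050467-38069185) and the LNCaP anchor 49627 bp (chr14:38026141-38075767). Both also covered promoters of TTC6, a gene on the opposite strand that starts 0.43 kb from the FOXA1 5′ end, and of the lncRNA gene ENSG00000289903, and the LNCaP anchor also covered an alternative promoter of MIPOL1 and the lncRNA gene ENSG00000259087. Contacts of FOXA1 and of these neighbours therefore cannot be separated. Per kb of anchor the order turned, with 138 RPM per kb in T-47D and 70.9 in LNCaP. The T-47D anchor also had 692 read pairs that joined it to itself, a class the LNCaP list does not hold.

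Contacts among all anchors around FOXA1 were compared as well. Within 500 kb of its 5′ end, Ishikawa had 24 loops with 137 read pairs, T-47D 59 with 1296 and LNCaP 220 with 18303. Among windows of that size around all protein-coding genes, these totals lay at percentiles 15.0, 95.3 and 99.99. Scaled to the list, the window had 3690 RPM in T-47D, 10138 in LNCaP and 132 in Ishikawa. The LNCaP window was the 2nd densest of all and held 1.01% of the read pairs of the list. Windows of nearby genes overlap this window, that of TTC6 almost wholly, so the rank describes the locus and not FOXA1 alone. The FOXA1 promoter anchor took part in 67.1% of the T-47D read pairs in the window (64.4 to 69.6) and in 34.2% of those in LNCaP (33.5 to 34.9). Relative to local contacts the T-47D value was thus the higher. This scaling was chosen after the data were seen.

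Most FOXA1 read pairs led to its 3′ side, into the body of MIPOL1, a gene encoding a coiled-coil protein. In T-47D 20 of 27 partners were downstream with 90.5% of the FOXA1 read pairs, and in LNCaP 24 of 48 with 95.1%. Partners overlapping the MIPOL1 body (chromosome 14, 37667099 to 38048330) numbered 12 in T-47D with 86.9% of the read pairs and 17 in LNCaP with 94.1%. Partners inside TTC6, on the upstream side, numbered 3 and 14, with 7.71% and 4.03% of the read pairs. The median distance of T-47D partners was 349 kb and that of LNCaP partners 319 kb. All upstream partners together had 86 read pairs in T-47D and 314 in LNCaP.

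**Figure D2:**
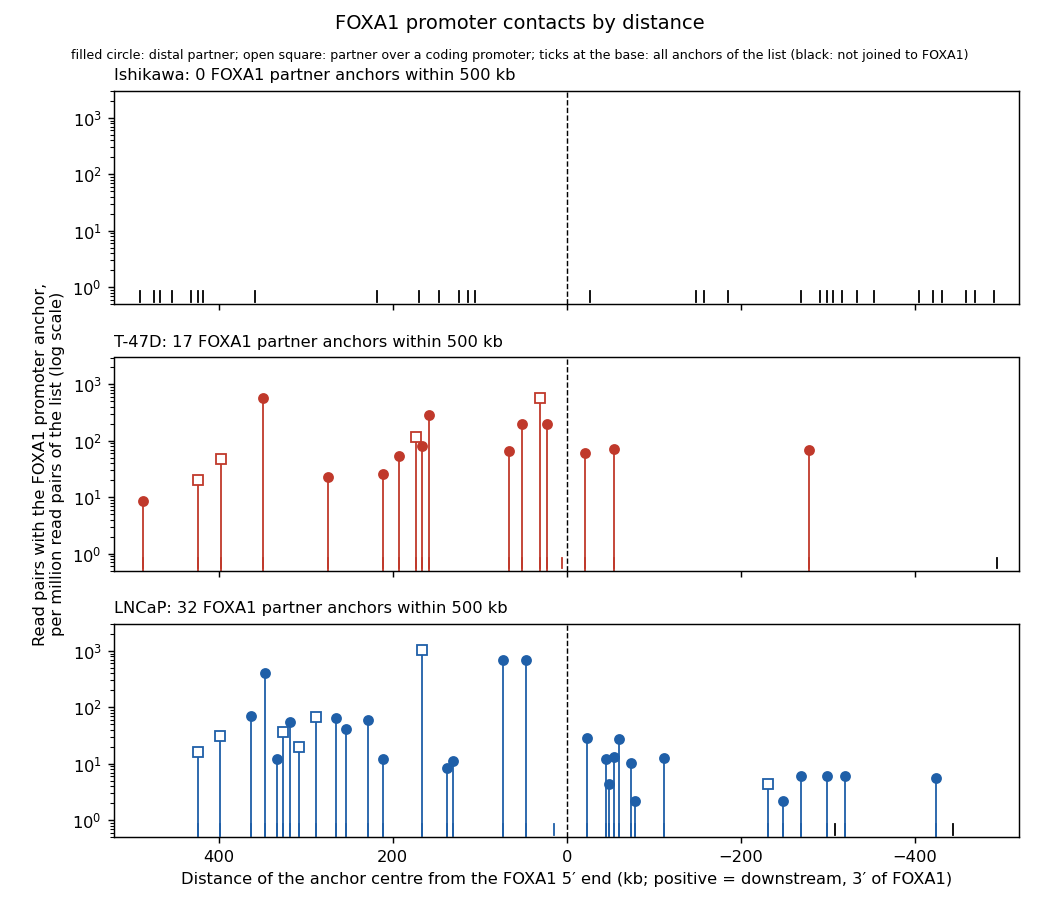
RPM with the FOXA1 promoter anchor (log scale) against the distance of the partner centre from the FOXA1 5′ end in kb, 1 panel per cell line, with circles for distal partners, squares for partners over a coding promoter and ticks for all anchors. The 17 T-47D and 32 LNCaP partners within 500 kb were tallest on the downstream side, and the 31 Ishikawa anchors there had no FOXA1 contact.

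In T-47D the strongest partner, with 203 read pairs, was an alternative MIPOL1 promoter 30.4 kb downstream (chr14:38033165-38036524). The next was the distal anchor 349 kb downstream that holds the first sequence above (chr14:37713564-37718620), with 201. It was followed by distal anchors 159 kb downstream with 99 (chr14:37903420-37909544), 51.0 kb downstream with 70 (chr14:38013496-38015058) and 22.9 kb downstream with 70 (chr14:38041505-38043258). The leading 4 partners carried 63.1% of the FOXA1 read pairs.

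In LNCaP the strongest partner was an anchor of 53559 bp over an internal MIPOL1 promoter, 166 kb downstream (chr14:37872330-37925888), with 1896 read pairs. It was followed by distal anchors 47.3 kb downstream with 1231 (chr14:38011393-38024624), 73.1 kb downstream with 1230 (chr14:37979656-38004687), 347 kb downstream with 730 (chr14:37708904-37728533) and 363 kb downstream with 127 (chr14:37698425-37706887). The leading 4 carried 80.1%, and the step from the 4th to the 5th was from 730 to 127 read pairs. The anchor 73.1 kb downstream holds the second sequence above.

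Contacts fall off with distance, so each FOXA1 loop was set against the loops of its own list whose span differed by at most 20%. In T-47D 12 of 27 FOXA1 loops reached the 95th percentile of read pairs for their span and 5 the 99th. In LNCaP 18 of 48 reached the 95th and 12 the 99th. Loops were matched by span and not by anchor width, and the FOXA1 promoter anchors were 18719 bp (T-47D) and 49627 bp (LNCaP) wide. Loops at the minimum of 3 read pairs numbered 7 in T-47D and 8 in LNCaP. Partners beyond 1 Mb numbered 6 in T-47D with 22 read pairs in all and 5 in LNCaP with 16. The farthest T-47D partners, over promoters of LRR1 and RPS29 and of ITPK1, lay at -12000 kb and -55516 kb, where negative distances are upstream, with 3 read pairs each, and the LNCaP list holds no span above 2 Mb.

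**Figure D3:**
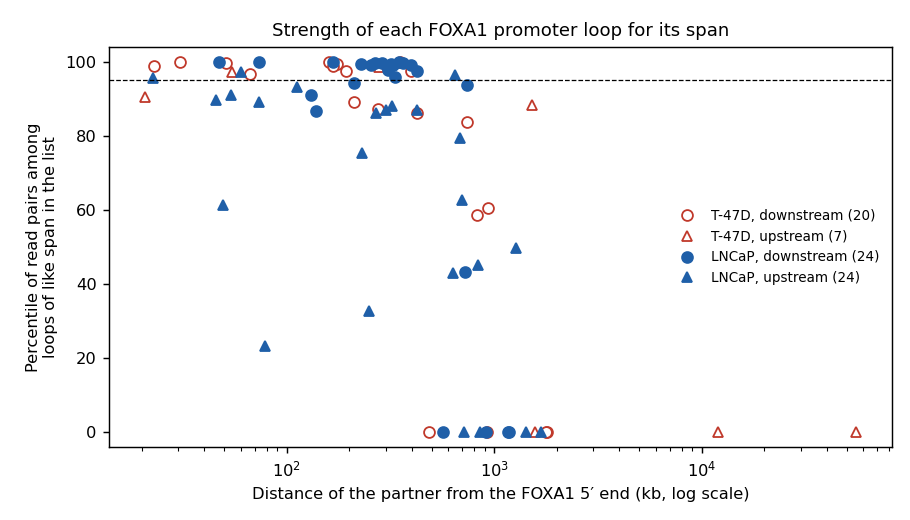
Percentile of the read pairs of each FOXA1 promoter loop among loops of like span in its list, against the distance of the partner in kb (log scale), with circles for downstream and triangles for upstream partners of T-47D (open, 27) and LNCaP (filled, 48). The dashed line is the 95th percentile, which 12 T-47D and 18 LNCaP loops reached.

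Partner positions were then compared between the lines. Of the 27 T-47D partners, 13 (48.1%, 28.7 to 68.0) overlapped an anchor joined to FOXA1 in LNCaP, and they carried 62.4% of the T-47D read pairs of FOXA1. Another 2, the anchors 22.9 and 30.4 kb downstream with 30.1% of the read pairs, lay inside the wide LNCaP promoter anchor, where a contact with FOXA1 cannot be seen. A further 7 overlapped a LNCaP anchor that was not joined to FOXA1, and 5 overlapped none. The 7 include the 2 partners beyond 2 Mb, which could not be joined in LNCaP, whose list holds no span of that length. Of the 48 LNCaP partners, 10 (20.8%, 10.5 to 35.0) had a FOXA1 contact in T-47D, and these carried 83.3% of the LNCaP read pairs. For 36 of the others T-47D had no anchor at all. By this rule of 1 bp or more, most read pairs of either line were on positions used in both, while most LNCaP positions lacked a T-47D anchor. The LNCaP list has 43549 anchors and the T-47D list 21152. Such shares were not counted over all anchors or over partners of other genes, so they cannot be called particular to FOXA1. When the overlap had to reach 50% of both anchors, which differ in width, 3 partners of each line were found in the other, and with centres within 10 kb 16 LNCaP partners were found in T-47D. With LNCaP thinned to the depth of T-47D, 26 LNCaP partners were left, of which 10 were found in T-47D.

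To compare the same stretches, T-47D anchors were grouped within the LNCaP anchors, a step chosen after the data were seen. At the region 166 kb downstream, where T-47D had 4 anchors, the values were 749 RPM in T-47D and 1050 in LNCaP. At the region 347 kb downstream T-47D was higher, with 683 RPM against 404. At the regions 47.3 and 73.1 kb downstream LNCaP was higher, with 682 against 296 and 681 against 94.0 RPM. The next 7 LNCaP regions in order of read pairs, from 229 to 363 kb downstream, had 36.0 to 70.4 RPM in LNCaP. T-47D had no anchor at any of them, so no T-47D loop could be listed there. The order of the regions thus differed between the lines, with 29.8% of the grouped T-47D read pairs and 11.5% of those in LNCaP at 347 kb, and 4.10% against 19.4% at 73.1 kb.

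**Figure D4:**
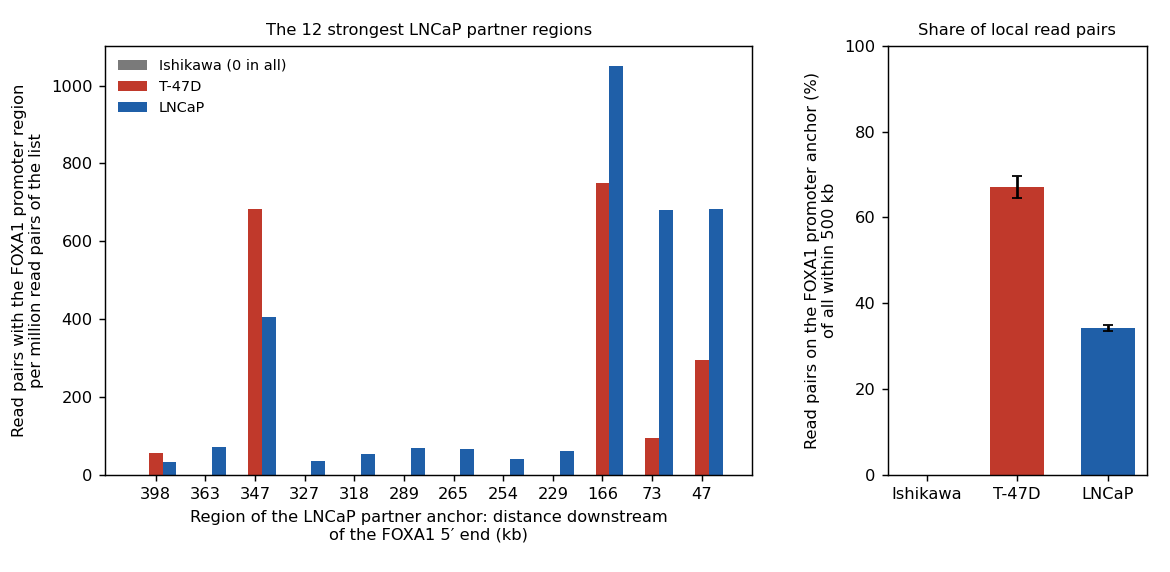
On the left, RPM between the FOXA1 promoter region and the 12 strongest LNCaP partner regions, by distance downstream in kb, with 1 bar per cell line. No bar means 0 listed read pairs, also where the list had no anchor. On the right, the percent of read pairs within 500 kb that involve the FOXA1 promoter anchor, with exact 95% intervals. T-47D exceeded LNCaP at the regions 347 and 398 kb downstream, and its local share was 67.1% against 34.2%. On the right T-47D anchors were not grouped, and with them grouped as in LNCaP its share was 59.1%.

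Ishikawa had H3K27ac anchors at some of these places, none of them joined to FOXA1. Of the T-47D partners 9 of 27 overlapped an Ishikawa anchor, with 13% of the T-47D read pairs, and of the LNCaP partners 15 of 48, with 45.6% of the LNCaP read pairs. The share of all anchors of these lists that overlap an Ishikawa anchor was not counted. Of these 2897 LNCaP read pairs, 1896 were on the anchor of 53559 bp and 730 on the anchor at chr14:37708904-37728533. The Ishikawa anchor that overlapped the edge of the second (chr14:37703637-37709732) had 0 loops and 5 read pairs joining it to itself. The Ishikawa anchor closest to FOXA1, centred at -26.6 kb (chr14:38085856-38097820), had 2 loops with 6 read pairs and 20 read pairs joining it to itself. An anchor 170 kb downstream (chr14:37890067-37900848), inside the strongest LNCaP partner, had 1 loop of 3 read pairs, which led to that upstream anchor, so that its anchors flanked FOXA1. The strongest Ishikawa loop of the window joined positions 124 and 113 kb downstream with 17 read pairs. All 4 separately sorted parts of the Ishikawa list had 0 FOXA1 promoter loops.

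The FOXA1 partners were also joined to one another. In T-47D 42 of the 136 pairs of partners within 500 kb were joined (30.9%), and in LNCaP 184 of 496 (37.1%), with 427 and 12032 read pairs. The median over promoter anchors with 10 or more such partners was 46.7% in each list, and the FOXA1 values lay at percentile 14.7 among 1052 such anchors of T-47D and percentile 27.8 among 4514 of LNCaP. The strongest LNCaP contact between partners linked the regions 166 and 73.1 kb downstream with 1638 read pairs, close to the 1896 between FOXA1 and the former. In T-47D the strongest linked the regions 51.0 and 30.4 kb downstream with 34. Neighbouring genes shared the partners. MIPOL1 had 12 of the 16 distal FOXA1 partners in T-47D and all 40 in LNCaP, where it shares the promoter anchor. SLC25A21, a mitochondrial carrier gene, shared 0 and 9, and PAX9, a paired-box factor, shared 1 and 3.

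Forkhead matches were counted in the distal partners beside all distal anchors of the list. T-47D partners had 27 matches in 48.2 kb, 0.56 per kb against 0.375 over 9872 distal anchors. LNCaP partners had 98 in 241 kb, 0.406 per kb against 0.435 over 30738 distal anchors. A match was present in 10 of 16 T-47D partners (62.5%, against 58.5% of all distal anchors) and 35 of 40 LNCaP partners (87.5%, against 72.5%), with anchor width differing between partners and the rest. AGAACA, a single repeat of the androgen and glucocorticoid receptor site and not the full site, occurred at 0.893 per kb in T-47D partners against 0.823 and at 0.9 in LNCaP partners against 0.938. AGGTCA, a single repeat of the estrogen receptor site, occurred at 0.477 per kb against 0.742 and at 0.626 against 0.705. The AP-1 motif TGAGTCA occurred at 0.208 per kb against 0.196 and at 0.182 against 0.183, and the GATA motif AGATAAG at 0.125 against 0.128 and at 0.182 against 0.163. In the central 1 kb of each anchor LNCaP partners had 4 AP-1 matches in 40 kb, 0.1 per kb against 0.211, and T-47D partners had 0.25 against 0.213. AGGTCA was lower there in both lines, at 0.375 per kb against 0.684 in LNCaP and 0.5 against 0.763 in T-47D. T-47D partners had 13 forkhead matches in 16 kb, 0.812 per kb against 0.412, and LNCaP partners had 0.55 against 0.576. Each motif was counted on its own on both strands, and these are letter matches, not binding.

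FOXA3 (ENSG00000170608.3_7, chromosome 19, 46367247 to 46377055, plus strand, 2 start sites) had promoter contacts in LNCaP alone. It had 3 loops with 23 read pairs, 12.7 RPM (8.08 to 19.1), at percentile 54.9 of protein-coding genes, and 0 distal partners. Its anchor (chr19:46362302-46367463) was shared with the divergent gene SYMPK, which encodes a scaffold of the pre-mRNA cleavage machinery. SYMPK had the same 23 read pairs, so contacts of FOXA3 and of SYMPK cannot be separated. The strongest contact, with 17 read pairs, was the promoter of IRF2BP1, a corepressor gene, 20.9 kb downstream (chr19:46384781-46391509), at percentile 75.0 among loops of like span. Promoters of VASP at -355 kb and CCDC61 at 131 kb had 3 read pairs each. With the lists at 0 set to 3 read pairs, LNCaP was 4.42-fold above Ishikawa and 1.49-fold above T-47D. The nearest anchor edge was 13.1 kb from a FOXA3 start site in Ishikawa and 18.2 kb in T-47D. Loops with both anchors within 500 kb of FOXA3 had 1025 read pairs in Ishikawa, 381 for T-47D and 616 for LNCaP, at percentiles 90.4, 79.1 and 52.1 of such windows.

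FOXA2 (ENSG00000125798.15_13, chromosome 20, 22561636 to 22566093, minus strand, 2 start sites) had no anchor over its start sites in any list. The nearest anchor edge was 52.0 kb away in Ishikawa, with 413 kb in LNCaP and 747 kb in T-47D. Within 500 kb Ishikawa had 16 anchors and 6 loops with 24 read pairs, T-47D had 0 anchors, and LNCaP had 1 anchor and 0 loops. The strongest of the Ishikawa loops had 6 read pairs. The FOXA2 window lay at percentile 5.5 of such windows in Ishikawa.

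Of 41 other forkhead genes 0 had as many read pairs as FOXA1 in T-47D or LNCaP. In all 19 had a promoter loop in Ishikawa (46.3%), 14 did in T-47D (34.1%) and 19 did in LNCaP (46.3%), below the shares over all protein-coding genes given above, and their median was 0 RPM in each list, against 3.85, 0 and 7.20 over all protein-coding genes. The highest in Ishikawa was FOXJ1, the regulator of motile cilia, with 211 read pairs, then FOXK2 with 203 and FOXJ2 with 115. In T-47D it was FOXK2 with 138, then FOXO6 with 54, and FOXK1 and FOXM1 with 33 each. In LNCaP it was FOXJ3 with 603, then FOXO3, a target of insulin signalling, with 594 and FOXK2 with 581. The highest values in RPM were 203, 393 and 334.

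Genes of factors that act with FOXA proteins were counted in the same way. Of 31 receptor, lineage factor and coregulator genes, 26 had a promoter loop in Ishikawa (83.9%), 22 did in T-47D (71.0%) and 24 did in LNCaP (77.4%). Over all protein-coding genes the shares were 57.3%, 49.2% and 58.1%. The medians were 25.9, 85.4 and 41.5 RPM, against 3.85, 0 and 7.20 over all protein-coding genes. These 31 genes were chosen with earlier results of these data known. GATA3, which works with FOXA1 and the estrogen receptor in luminal breast cells, had 1063 read pairs in T-47D (3026 RPM) and was the only one above FOXA1 in either list with FOXA1 loops. The T-47D order continued with PGR, the progesterone receptor, with 517 and ESR1, the estrogen receptor, with 195. In LNCaP GRHL2, an epithelial factor, had 3447 and HOXB13, a prostate homeobox factor, 3243. In Ishikawa ESR1 had 299, the histone methyltransferase gene KMT2D 222 and PAX8 162.

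TTC6 and MIPOL1, which have a start site in a FOXA1 promoter anchor and so share its read pairs, were left out of the search for like patterns. Among the remaining protein-coding genes, the 5 with the pattern most like that of FOXA1 over the 3 lists were replication-dependent histone genes of chromosome 6. The measure was the Euclidean distance in log2(RPM + 1), which is a description over 3 points. H2AC13, H2BC13 and H3C10, which share an anchor, were at 1.93, with 432 read pairs in T-47D, 2093 in LNCaP and 0 in Ishikawa. H3C1 and H4C1, which also share 1, were at 2.27, with 402, 1650 and 0 in the same order.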

How the data were processed

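H3K27ac HiChIP of 7 samples was grouped by the source named in the labels into Ishikawa, T-47D and LNCaP. The authors aligned reads to hg19 with HiC-Pro, called loops with hichipper, kept loops with 3 or more reads that passed a false discovery rate limit, and combined samples. The deposited values are counts of read pairs per anchor pair, with no scaling for depth, and no listed loop has fewer than 3. The Ishikawa table is 4 separately sorted parts that nothing assigns to a sample or treatment, so they were summed, and DMSO and E2 were not compared. A loop is a pair of different anchors on 1 chromosome.

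Totals of 351260 to 1805322 read pairs per list set the precision. Promoters were windows of 500 bp on start sites of GENCODE 44 lifted to GRCh37. Read pairs were scaled to 1000000 read pairs of the list (RPM), and a list at 0 was set to 3 read pairs in folds. No test was run, with 1 list per line. Python 3.11.15 with NumPy 2.4.6 and SciPy 1.17.1 was used. The counting was tested on simulated data and found the planted promoter loops of 2000 of 2000 genes.

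Members, gene lists, motifs and rules were chosen with earlier results of these data known. Named were the members, genes in or beside their anchors, the 5 strongest partners per list, the 3 highest genes of each other list and the 5 nearest patterns. One gene that this rule names is not reported here. Sequence was to be shown for the leading 3 regions common to T-47D and LNCaP, and 1 without a match is given by position only. Alternatives were minima of 5 and 10 read pairs, thinning, a window of 2 kb, 1 start site per gene, other spans and overlap rules, chromosome totals, the central 1 kb of anchors for motifs, each Ishikawa part left out, and others added after the data were seen.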

Additional observations from a re-analysis of the deposited data

Results flagged for a closer look

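Read pairs that enter no comparison above were looked at in the T-47D list, which still holds pairs of an anchor with itself and pairs across chromosomes. The FOXA1 promoter anchor was joined to itself by 692 read pairs, beside the 908 that joined it to other anchors. It was also joined to an anchor on chromosome 8 (37000969 to 37004680), which holds no coding promoter, by 3 read pairs, the minimum of the list. The LNCaP list holds neither class of pair, and the Ishikawa list has no anchor over the FOXA1 promoter, so neither value has a counterpart in them.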

How the results depend on the processing

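Of 182 values under alternatives for 23 results, 156 stayed within the counting interval of the value reported or, for counts, within 1.5 times, 24 left those limits and 2 turned direction. The 156 include 60 values with an Ishikawa part left out, which could not change, since they hold no Ishikawa read pairs or are an Ishikawa count of 0. Values with only Ishikawa loops in 2 or more parts kept were fixed in the same way. Counts of 0 could not rise with higher minima or thinning, and thinning leaves T-47D, the shallowest list, as it is. The 156 is therefore no measure of robustness. The log2 ratio of FOXA1 in LNCaP over T-47D, 0.44, was 0.19 with 10 read pairs or more, 0.85 after thinning to the shallowest list and 0.62 with T-47D anchors grouped as in LNCaP. With the read pairs within 500 kb as the total it turned to -0.97, and to -0.79 when the anchors were also grouped. These last 3 were chosen after the data were seen. With 5 read pairs or more, FOXA1 stood at 3946 RPM in LNCaP and 3080 in T-47D, FOXA3 kept 1 partner in LNCaP, and 9 other forkhead genes had a T-47D loop. With 10 or more, FOXA1 had 30 partners in LNCaP and 13 in T-47D, at 4840 and 4238 RPM, and FOXA3 had 1. After thinning, FOXA1 in LNCaP had 26 partners and 4657 RPM, and FOXA3 27.5 RPM. Loops of 20 kb to 1 Mb gave FOXA1 4668 and 3422 RPM in LNCaP and T-47D. Chromosome totals gave 70814 and 54414, and FOXA3 322, since the total is smaller by construction. With overlap of 50% of both anchors, 3 FOXA1 partners of LNCaP and 3 of T-47D were found in the other list, and with centres within 10 kb 16 of LNCaP. Forkhead matches in LNCaP partners were 0.55 per kb in the central 1 kb. Ishikawa also had 0 FOXA promoter loops with windows of 2 kb, and this could not have changed either. Its nearest anchor edges lay 20.6, 52.0 and 13.1 kb from start sites of FOXA1, FOXA2 and FOXA3, out of reach of such windows. The causes were not tested beyond what each alternative changes by construction. No paired analysis was possible because each line has 1 combined list and no column carries a replicate number. Loops under 3 read pairs are not listed, which limits every absence above.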
